A study of Homo sapiens with 6 samples.

Results

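A run of 30 neighbouring genes on the long arm of chromosome 16, from CDH13 to BANP, was followed here because an earlier look at the same arrays had shown many of them lower in one of the lines compared. Members were taken by gene symbol from all probe sets annotated to exactly 1 gene. Of the 30 listed genes, 28 were measured, by 65 of 54613 probe sets; CDH13, which encodes T-cadherin, and USP10, a deubiquitinase, were not analysed here. The measured genes make up 28 of the 19775 genes measured on these arrays. They were chosen on the difference between the lines, so their differences are given as a description and without a test.

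The 6 samples were total RNA from SKOV3.ip1, an established human ovarian carcinoma line, each read on 1 Affymetrix array. In 3 of them (S116A) the cells had been stably transfected with a vector carrying nonphosphorylatable PEA-15, in which alanine replaces the serine that gives the line its name. In the other 3 (S116D) the vector carried phosphomimetic PEA-15 with aspartic acid in its place. PEA-15 is a small adaptor protein that binds ERK and FADD. The labels disagree on whether the S116D form holds a second substituted serine. Both groups share the parental line and its own PEA15 gene, each is 1 stably transfected line (whether a clone or a pool is not given), and neither parental nor empty-vector cells were compared here. The labels do not say whether the 3 arrays of a line came from separate cultures, so spreads and p-values measure these arrays, and may be technical.

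This stretch of the chromosome mixes genes that most cells use with genes of narrow use. COX4I1, MBTPS1, TAF1C and GINS2 serve respiration, proteolysis in the Golgi, ribosomal RNA synthesis and DNA replication. The forkhead factor genes FOXF1, FOXC2 and FOXL1, which lie close together, act in mesenchyme and vessels of the embryo, IRF8 acts in myeloid and B cells, and JPH3, NECAB2 and KCNG4 are best known from nervous tissue. No DNA was measured, so these data speak of RNA only, and in a bulk sample fewer cells using a gene and less RNA per cell cannot be told apart.

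Median log2 signals per array lay between 7.862 and 7.893. PEA15 itself was at 12.61 ± 0.10 in the S116A line and at 12.55 ± 0.12 in the S116D line (SD over 3 arrays each); whether its probe set also reads the vector's transcript was not tested. Of 10 markers of ovarian carcinoma epithelium, 9 were above the median signal and MUC16 was not, at 6.66. Their summed level ranged from 15.61 to 15.89 in S116A and from 15.17 to 15.41 in S116D on the log2 scale, with 4 of them called lower in S116D (EPCAM, KRT8, KRT18 and KRT19). The part of this marker difference in the values below was not tested. Markers of mesothelium, leukocytes, fibroblasts and endothelium gave 0 calls among 12 measured genes by limma, 1 of them (LUM, of fibroblasts) with an unadjusted p under 0.05. The arrays also fell into 2 sets along a second principal component (20.3% of the variance), one of S116A 1 and 2 with S116D 1, the other of S116A 3 with S116D 2 and 3. No label names this division. Of all genes, 12.2% were called in either direction.

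Of the 28 members 22 had a negative difference, with a lower mean in the S116D line than in the S116A line, beside 9441 of all 19775 genes. Of the 22, 15 were called lower, beside 5.39% of all genes. The members were chosen on this contrast. Each gene is represented below by its brightest probe set, that of the highest 6-array mean, and a difference is the S116D mean less the S116A mean, in log2. The median of the 28 genes was -0.50, where that of all genes was 0.01. The median over these genes, set to the S116A mean of each, read 0.04, -0.02 and -0.03 on the S116A arrays and -0.41, -0.49 and -0.47 on the S116D arrays. All 3 S116D arrays were thus low, by nearly the same amount. Within the array sets of the second component the median was -0.46 (S116A 1 and 2 against S116D 1) and -0.51 (S116A 3 against S116D 2 and 3).

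By limma's test over all genes (Benjamini-Hochberg adjusted p under 0.05), 15 of the 28 were called lower, beside 5.39% of all genes, and all 15 were bright, beside 7.36% of all bright genes. The rule chose the members on this contrast, so nothing is read from that count. The lines did not overlap, with S116D below S116A, for 17 of the 28, beside 12.6% of all genes. Differences of -1.0 or below were seen in 4 genes (ZDHHC7, COTL1, HSBP1 and ZCCHC14), whereas 11 genes differed by less than 0.25 in either direction.

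**Figure D1:**
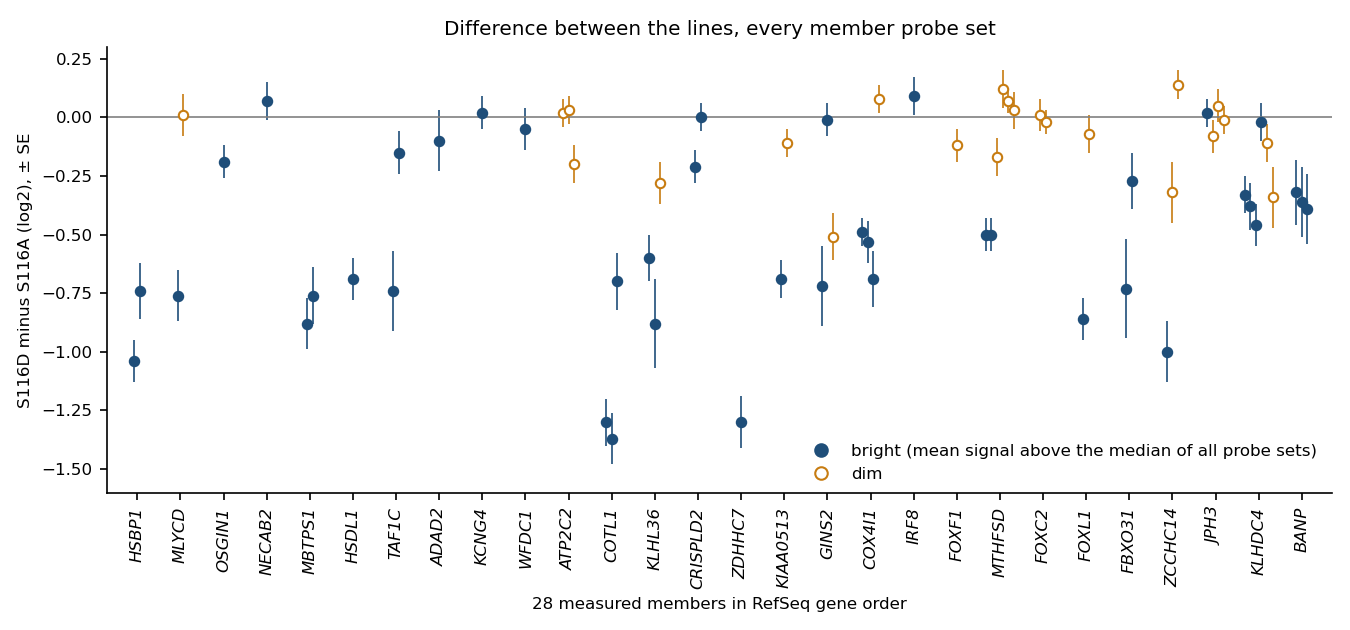
Difference between the lines (S116D minus S116A, log2, with limma's standard error) of all 65 member probe sets, with the 28 measured genes in RefSeq gene order from left to right. Filled points are bright probe sets, above the median signal, and open points dim ones. The bright points reach down to -1.37, at COTL1, while most dim points lie near 0.

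The lower values were found mostly where the signal was high. Bright probe sets had a mean over the 6 arrays above the median of all probe sets, 7.89 on the log2 scale, and dim ones were at or below it. The 42 bright member probe sets had a median difference of -0.50 and ranged from -1.37 to 0.09. The 23 dim ones had a median of -0.02 and ranged from -0.51 to 0.14. Over all 54613 probe sets the medians were 0.00 for bright and 0.01 for dim. Of the bright member probe sets 24 were called lower, beside 6.87% of all bright probe sets, and of the dim ones 1, beside 1.52% of all dim ones, which makes 25 of the 65, beside 4.19% of all probe sets. Lines that did not overlap, S116D being lower, were seen for 27 bright and 4 dim member probe sets, or 31 in all, beside 16.4%, 6.54% and 11.5% of all. For 1 member probe set, of ZCCHC14, they did not overlap with S116D higher, beside 12.5% of all. The split itself uses the mean over both lines, and 41 of the 42 bright probe sets were above the median in both lines. The exception is that of FOXL1.

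When all probe sets were divided by signal into 4 equal classes, the 22 member probe sets in the highest class (above 9.35) had differences between -1.37 and -0.32, with a median of -0.73. Of these 17 were called lower, beside 9.4% of all probe sets in that class. The 5 not called were the 3 of BANP and 1 of FBXO31, whose lines overlapped, and 1 of KLHDC4. The 20 in the next class had a median of -0.17 and ranged from -0.86 to 0.09. In the classes below, with 16 and 7 probe sets, the medians were -0.09 and -0.01. The whole table had medians between -0.02 and 0.01 in the same classes. Across the 65 probe sets, many of which share a gene and all of which share the 6 arrays, the Spearman correlation of mean signal and difference was -0.73, against -0.06 across all probe sets. The members were chosen on this difference, whereas over all probe sets calls went both ways (2290 lower, 2382 higher), so these correlations are not comparable. Over the whole table, too, the share called lower rose with signal, from 1.09% in the lowest class to 9.4% in the highest. A bright signal alone does not show a transcript: CD3E, a T-cell gene, read 9.54 in these carcinoma cells.

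**Figure D2:**
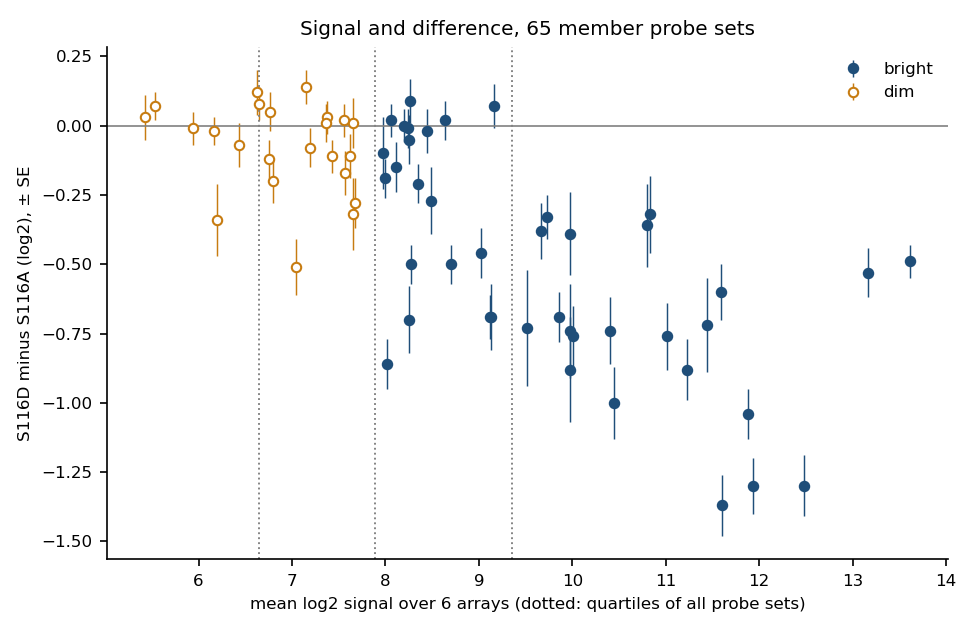
Mean log2 signal over the 6 arrays against the difference between the lines (S116D minus S116A, log2, with limma's standard error) for the 65 member probe sets, bright ones filled and dim ones open. Dotted lines mark the quartiles of all probe sets; right of the last one, at 9.35, every member probe set lies between -1.37 and -0.32.

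The promoters of 20 listed members were found in RefSeq (build GRCh38.p14), as 24 windows of 300 bases from 250 before to 50 after a transcription start. They were rich in CpG dinucleotides, with a median of 33 per window and a median GC content of 71.5%, against 14 and 58.7% over all 35116 windows of the table. The 14 windows of members in the highest class of signal, from 12 genes, had a median of 37 CpG and ran from 14 to 44. The 9 windows of other measured members, from 7 genes, had a median of 13 and ran from 3 to 42. Windows of all other genes were not divided by signal, so this split was not compared with theirs. No window was found for CDH13, NECAB2, HSDL1, WFDC1, ATP2C2, FOXF1, FOXC2, FOXL1, JPH3 and KLHDC4. The letters GGGCGG, the core of the GC box, were found on either strand in 17 of the 24 windows (70.8%, against 45.0% of all windows), CCAAT in 8 (33.3% against 34.6%) and TATAAA in 0 (against 11.5%). Matches are letters in a window, not sites shown to be bound.

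The windows of 4 genes are printed, each 5′ to 3′ on the gene's own strand, with GGGCGG and CCAAT in capitals on either strand (CCGCCC and ATTGG where reversed). COX4I1 (chr16:85799445-85799744, plus strand) and FBXO31 (chr16:87392072-87392371, minus strand) are shown because each shares its start region with a gene read the other way, EMC8 and MAP1LC3B. COTL1 (chr16:84618029-84618328, minus strand), with one of the largest differences, is set beside KCNG4 (chr16:84239963-84240262, minus strand), which differed little. The pair was picked for its differences and does not stand for the other members. CRISPLD2, with 31 CpG and 2 GGGCGG matches, differed by only -0.21. MBTPS1, with 36 CpG but 0 matches of GGGCGG or CCAAT, differed by -0.88. Whether promoter letters go with the difference was not tested.
COX4I1: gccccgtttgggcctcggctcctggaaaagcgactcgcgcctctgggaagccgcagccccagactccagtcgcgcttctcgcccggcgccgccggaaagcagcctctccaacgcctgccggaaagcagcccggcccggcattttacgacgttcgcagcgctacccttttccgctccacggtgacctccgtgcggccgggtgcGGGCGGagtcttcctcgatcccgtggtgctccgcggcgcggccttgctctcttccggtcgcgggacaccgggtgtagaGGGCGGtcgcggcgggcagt
FBXO31: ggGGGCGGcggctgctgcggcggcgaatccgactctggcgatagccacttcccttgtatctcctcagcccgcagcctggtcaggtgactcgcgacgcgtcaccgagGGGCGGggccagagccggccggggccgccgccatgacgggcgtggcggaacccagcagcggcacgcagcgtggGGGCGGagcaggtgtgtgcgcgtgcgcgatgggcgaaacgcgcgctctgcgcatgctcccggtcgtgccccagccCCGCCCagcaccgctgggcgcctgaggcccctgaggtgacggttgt
COTL1: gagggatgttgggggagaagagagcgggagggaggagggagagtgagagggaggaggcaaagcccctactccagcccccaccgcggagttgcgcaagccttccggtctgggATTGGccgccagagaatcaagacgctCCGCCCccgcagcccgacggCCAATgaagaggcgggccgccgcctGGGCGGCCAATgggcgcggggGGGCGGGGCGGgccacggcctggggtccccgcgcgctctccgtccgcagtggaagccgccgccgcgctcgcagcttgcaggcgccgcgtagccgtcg
KCNG4: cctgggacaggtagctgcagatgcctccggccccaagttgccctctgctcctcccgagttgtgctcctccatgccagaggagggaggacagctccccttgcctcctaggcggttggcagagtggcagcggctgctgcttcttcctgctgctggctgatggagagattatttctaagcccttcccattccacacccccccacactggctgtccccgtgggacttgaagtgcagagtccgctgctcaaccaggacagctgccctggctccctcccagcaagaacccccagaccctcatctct
The COX4I1 window held 42 CpG and 2 GGGCGG matches, and 250 of its bases are also in the window of EMC8. The FBXO31 window held 40 CpG and 4 GGGCGG matches and shares 286 bases with that of MAP1LC3B. COTL1 had 35 CpG, 4 GGGCGG and 3 CCAAT matches. KCNG4 had 6 CpG and 0 matches of either motif.

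At both shared starts the genes on either side had negative differences, and FBXO31, whose lines overlapped, was the one of these genes not called. EMC8, a subunit of the ER membrane protein complex, read 11.93, 11.86 and 12.15 in S116A and 10.95, 11.14 and 11.17 in S116D, a difference of -0.89 ± 0.10 (SE), beside -0.49 ± 0.06 for COX4I1. MAP1LC3B, the autophagy protein LC3B, read 12.96, 12.75 and 12.48 against 11.79, 11.58 and 11.69, a difference of -1.04 ± 0.12, beside -0.73 ± 0.21 for FBXO31. Neighbours in gene order could also part. HSDL1 differed by -0.69 ± 0.09 and the next gene, DNAAF1, an axonemal dynein assembly factor, by 0.05 ± 0.06, at a signal of 8.75. EMC8 and DNAAF1 were named after their values were seen.

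COTL1, a coactosin-like protein that binds actin filaments, had all of its 3 probe sets called lower. Its brightest read 12.76, 12.57 and 12.39 in S116A and 11.24, 11.20 and 11.39 in S116D. The lines were far apart, and the difference of -1.30 ± 0.10 (SE) is 2.46-fold. The second probe set differed by -1.37 ± 0.11, or 2.58-fold, and the third, at a mean of only 8.25, by -0.70 ± 0.12. ZDHHC7, a palmitoyltransferase of the Golgi, read 13.36, 13.07 and 12.95 in S116A on its 1 probe set and 11.96, 11.76 and 11.77 in S116D. It differed by -1.30 ± 0.11, as much as COTL1.

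HSBP1, MBTPS1 and MLYCD were lower on their brightest probe sets as well, while OSGIN1 was not called. HSBP1, a small protein that binds heat shock factor trimers, read 12.43, 12.25 and 12.51 in S116A and 11.28, 11.33 and 11.45 in S116D. It differed by -1.04 ± 0.09 (SE), 2.06-fold, and by -0.74 ± 0.12 on its other probe set. MBTPS1, the site-1 protease that cleaves SREBP and ATF6, read 11.83, 11.67 and 11.49 against 10.96, 10.69 and 10.72, and its probe sets gave -0.88 ± 0.11 and -0.76 ± 0.12. Neither gene's lines overlapped on any probe set. MLYCD, malonyl-CoA decarboxylase, read 10.45, 10.42 and 10.31 against 9.74, 9.41 and 9.74, a difference of -0.76 ± 0.11. Its dim probe set, with a mean of 7.65, showed no such step, at 0.01 ± 0.09. OSGIN1, an oxidative stress-induced growth inhibitor, read 8.15, 8.06 and 8.05 against 7.91, 7.84 and 7.95. Its lines did not overlap, with a difference of -0.19 ± 0.07, but it was not called.

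GINS2, TAF1C, COX4I1, HSDL1 and MTHFSD were lower by 1.41-fold to 1.67-fold on their brightest probe sets. GINS2, a subunit of the replicative helicase, read 11.66, 11.58 and 12.18 in S116A and 10.86, 11.14 and 11.26 in S116D. S116A 3 was the highest array. The difference was -0.72 ± 0.17 (SE), a dim probe set gave -0.51 ± 0.10, and another bright one, at 8.24, gave -0.01 ± 0.07. TAF1C, a subunit of the selectivity factor of RNA polymerase I, read 10.31, 10.65 and 10.08 against 9.90, 9.43 and 9.48, a difference of -0.74 ± 0.17. The gap between its lines was narrow, and its second probe set, at 8.11, differed by -0.15 ± 0.09. COX4I1, subunit 4 of cytochrome c oxidase, was the brightest member, at 13.77, 13.91 and 13.90 against 13.33, 13.35 and 13.41. Its 3 bright probe sets differed by -0.49 ± 0.06, -0.53 ± 0.09 and -0.69 ± 0.12, whereas the dim one, at 6.65, differed by 0.08 ± 0.06. HSDL1, a mitochondrial relative of the steroid dehydrogenases, read 10.36, 10.10 and 10.16 against 9.47, 9.46 and 9.62. MTHFSD, named for its methenyltetrahydrofolate synthetase domain, differed by -0.50 ± 0.07 on both of its bright probe sets. On the brighter one it read 8.95, 8.97 and 8.95 against 8.40, 8.49 and 8.47, and its 4 dim probe sets lay between -0.17 and 0.12.

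Without 1 array or on another probe set, some of these calls ended. TAF1C was no longer called without S116A 1, S116A 2, S116D 2 or S116D 3, GINS2 without S116A 1, S116D 1 or S116D 2, and KLHDC4 without any array but S116A 3. Where probe sets whose names do not mark them as shared between transcripts were preferred, GINS2 differed by -0.01 and KLHDC4 by -0.11, neither called. With each gene's probe sets summarised by their median, GINS2 (-0.01), MTHFSD (-0.03) and ZCCHC14 (-0.32) were not called.

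**Figure D3:**
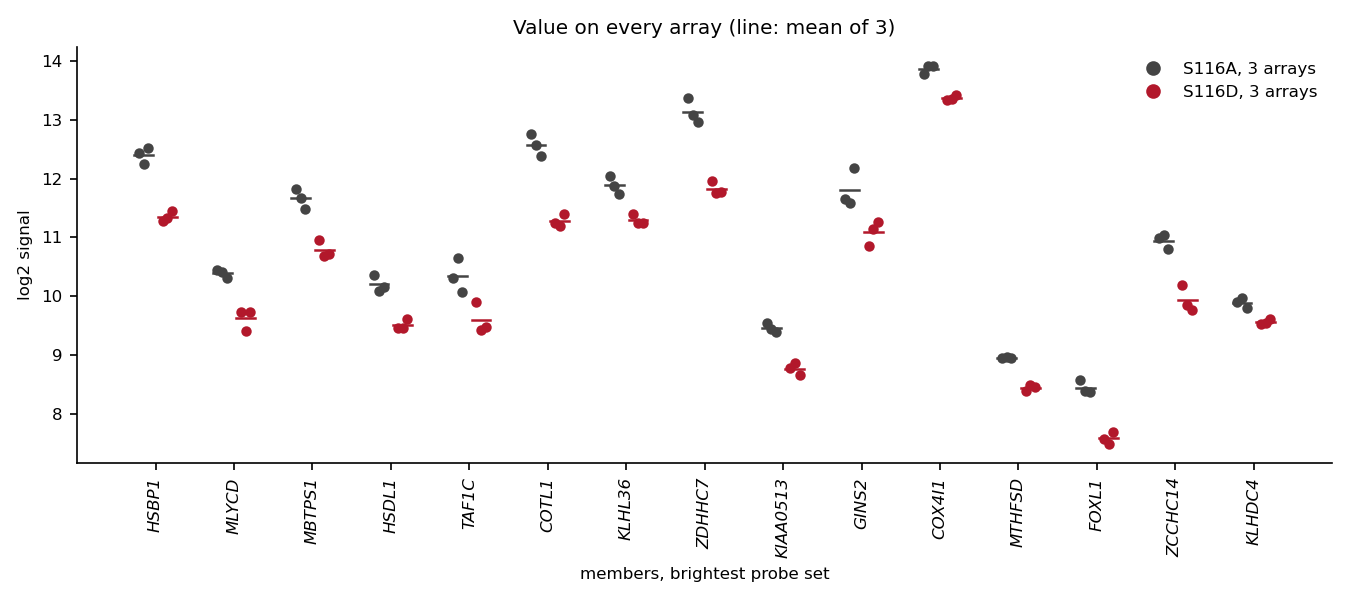
Log2 signal on each of the 6 arrays, for the brightest probe set of the 15 members called lower (S116A grey, S116D red; points are arrays and bars the mean of 3). No gene shown has a S116D array above a S116A array; COX4I1 is the brightest and FOXL1 the dimmest.

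For KLHL36, KLHDC4, ZCCHC14 and KIAA0513 some probe sets were called lower and others were not, and for FBXO31 and BANP none was called. KLHL36, a Kelch-like protein, read 12.05, 11.88 and 11.74 in S116A and 11.40, 11.24 and 11.25 in S116D, a difference of -0.60 ± 0.10 (SE), with -0.88 ± 0.19 on its second probe set and -0.28 ± 0.09 on its dim one. KLHDC4, with Kelch repeats, read 9.91, 9.97 and 9.80 against 9.54, 9.55 and 9.62, a difference of -0.33 ± 0.08. Its 6 probe sets ran from -0.46 to -0.02, and 2 were called. FBXO31, the substrate-binding part of a ubiquitin ligase, read 10.22, 9.81 and 9.58 against 9.60, 8.88 and 8.96. S116D 1 lay above the lowest S116A array, so the lines overlapped, and the difference of -0.73 ± 0.21 was not called. It was called with the replicate block (-0.73), with the array sets as a block (-0.54), and without S116A 3 or S116D 1. Its other bright probe set, at 8.49, differed by -0.27 ± 0.12 with overlapping lines and was not called, and it stands for the gene where unshared probe sets are preferred. ZCCHC14, a zinc finger protein, read 10.99, 11.05 and 10.80 against 10.20, 9.86 and 9.77, a difference of -1.0 ± 0.13. Its dimmer probe sets differed by -0.32 ± 0.13 and 0.14 ± 0.06. KIAA0513, a little-studied gene, read 9.55, 9.45 and 9.40 against 8.79, 8.87 and 8.67, or -0.69 ± 0.08, with -0.11 ± 0.06 on its dim probe set. BANP, a nuclear matrix-associated protein and the last member in order, read 10.66, 11.04 and 11.27 against 10.62, 10.64 and 10.75. Its 3 probe sets differed by -0.32 to -0.39, S116A 1 lay among the S116D arrays, and none was called. The call was made without S116A 1 and with the array sets as a block.

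The genes of narrow use differed little, with 1 exception. FOXL1, a forkhead factor of gut mesenchyme, read 8.59, 8.39 and 8.38 in S116A and 7.58, 7.50 and 7.70 in S116D, a difference of -0.86 ± 0.09 (SE). Its other probe set, with a mean of 6.43, differed by -0.07 ± 0.08. On the brighter one the S116D mean of 7.59 was under the median signal of 7.89 and was not shown to be above background. The neighbouring FOXF1, a factor of lung and gut mesenchyme (-0.12 ± 0.07), and FOXC2, a factor of lymphatic vessels (0.01 ± 0.07 and -0.02 ± 0.05), were dim, at means of 6.75, 7.36 and 6.17. CRISPLD2, a secreted cysteine-rich protein, read 8.50, 8.44 and 8.42 against 8.21, 8.27 and 8.26. Its lines did not overlap there, at -0.21 ± 0.07, but did on its second probe set, at 0.00 ± 0.06. IRF8, a transcription factor of myeloid and B cells, read 8.22, 8.17 and 8.25 against 8.20, 8.41 and 8.31 and had the highest difference of the brightest probe sets, 0.09 ± 0.08. Of the leukocyte markers 3 were measured. PTPRC was dim, at 6.94 ± 0.06 in the S116A line and 7.05 ± 0.10 in the S116D line (SD over 3 arrays each). CD14 was dim too, at a mean of 5.86, but CD3E was bright, at 9.54.

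NECAB2, a neuronal calcium-binding protein, read 9.05, 9.09 and 9.25 against 9.16, 9.15 and 9.29, the brightest member with a difference near 0 (0.07 ± 0.08, SE). KCNG4, a potassium channel subunit, read 8.67, 8.54 and 8.68 against 8.64, 8.67 and 8.65. WFDC1, a secreted protein with a WAP domain (-0.05 ± 0.09), ADAD2, a testis gene (-0.10 ± 0.13), and JPH3, a junctophilin of neurons, had overlapping lines as well. The 4 JPH3 probe sets lay between -0.08 and 0.05. ATP2C2, a calcium and manganese pump of the secretory pathway, had 3 dim probe sets between -0.20 and 0.03, and only for the lowest did the lines not overlap. The genes of this paragraph had mean signals of 9.16 (NECAB2) or less, under the 9.54 of CD3E, and were not shown to be above background. Their small differences thus do not show unchanged transcripts.

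Probe sets of the same gene often differed. Of the 28 members 19 had over 1 probe set, and in 10 of these the probe sets spanned 0.5 or more. Of the 10 members with both bright and dim probe sets, the bright ones had the lower mean difference in 8, with GINS2 and JPH3 as exceptions. The widest span was that of ZCCHC14, from -1.0 to 0.14. Of the 28 genes, 15 were called lower on at least 1 probe set and 5 on every one (HSBP1, MBTPS1, HSDL1, COTL1 and ZDHHC7). The shares of all genes called in these ways were not counted, so nothing is read from these counts. Of these 5, HSDL1 and ZDHHC7 had only 1 probe set each.

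The lower values were not limited to the listed genes. Between the first and the last measured member lie 22 other measured genes, most of them dim. The 10 bright ones had a median difference of -0.76 and the 12 dim ones of -0.02, beside -0.60 for the 25 bright members. MEAK7, a regulator of mTOR signalling, read 11.22, 10.83 and 10.94 in S116A and 9.44, 9.38 and 9.42 in S116D. Its difference of -1.58 ± 0.11 (SE), 3.0-fold, was larger than that of any member probe set. SLC7A5, the large neutral amino acid transporter LAT1, differed by -1.12 ± 0.07 between bright levels of 14.38 and 13.26. Of these 22 genes 6 were called lower by limma, beside 5.39% of all genes. All 6 were among the 10 bright ones, beside 7.36% of all bright genes.

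On the side toward the centromere the 20 nearest measured genes had a median difference of -0.05, or -0.25 for the 11 bright ones. The nearest, LOC101928417, was dim and differed by 0.10 ± 0.07 (SE), against -1.04 ± 0.09 for HSBP1, the first measured member. CMC2, a factor of cytochrome c oxidase assembly (-0.71 ± 0.09), ATMIN, a cofactor of the ATM kinase (-0.71 ± 0.08), and GCSH, of the glycine cleavage system (-0.64 ± 0.06), had the largest differences. They were the 3 genes called of the 20, each lower, beside 5.39% of all genes. All 3 were among the 11 bright ones, beside 7.36% of all bright genes. Beyond CMC2 lay CDYL2 at -0.05 ± 0.07 and WWOX at -0.16 ± 0.09, both bright and both named after their values were seen. Counted outward in groups of 10 bright genes, the medians were -0.33, -0.19, -0.38 and -0.43 over the first 40, and -0.07, -0.14, -0.22 and -0.07 over the next 40. Beyond these they were -0.11, -0.03, 0.02, -0.03 and 0.38.

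On the side toward the telomere negative medians went on to the end of the chromosome. The 20 genes after BANP had a median of -0.17, or -0.21 for the 15 bright ones. By limma 6 of the 20 were called lower, beside 5.39% of all genes, and 5 of the 15, beside 7.36% of all bright genes. ZNF469, the nearest, differed by -0.01 ± 0.07 (SE), against -0.32 ± 0.14 for BANP. PIEZO1, a mechanically gated channel (-1.01 ± 0.18), RNF166, a ubiquitin ligase (-0.90 ± 0.11, dim, at a mean of 7.17), and ZC3H18, an RNA-binding zinc finger protein (-0.69 ± 0.09), differed most. In groups of 10 bright genes outward the medians were -0.29, -0.20 and -0.34, and the last 3 genes had -0.19. The remaining 735 measured genes of chromosome 16 had a median of -0.03, or -0.05 for the 540 bright ones, and genes on other chromosomes 0.01. These 735 include the farther genes of the outward groups on both sides, and their differences ran from -2.81 to 2.35. A running median over 15 bright genes was lowest at IRF8, at -0.72. Away from the members it also reached -0.471 at ITPRIPL2, nearer the short-arm end, and -0.432 at GLG1, on the side toward the centromere.

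**Figure D4:**
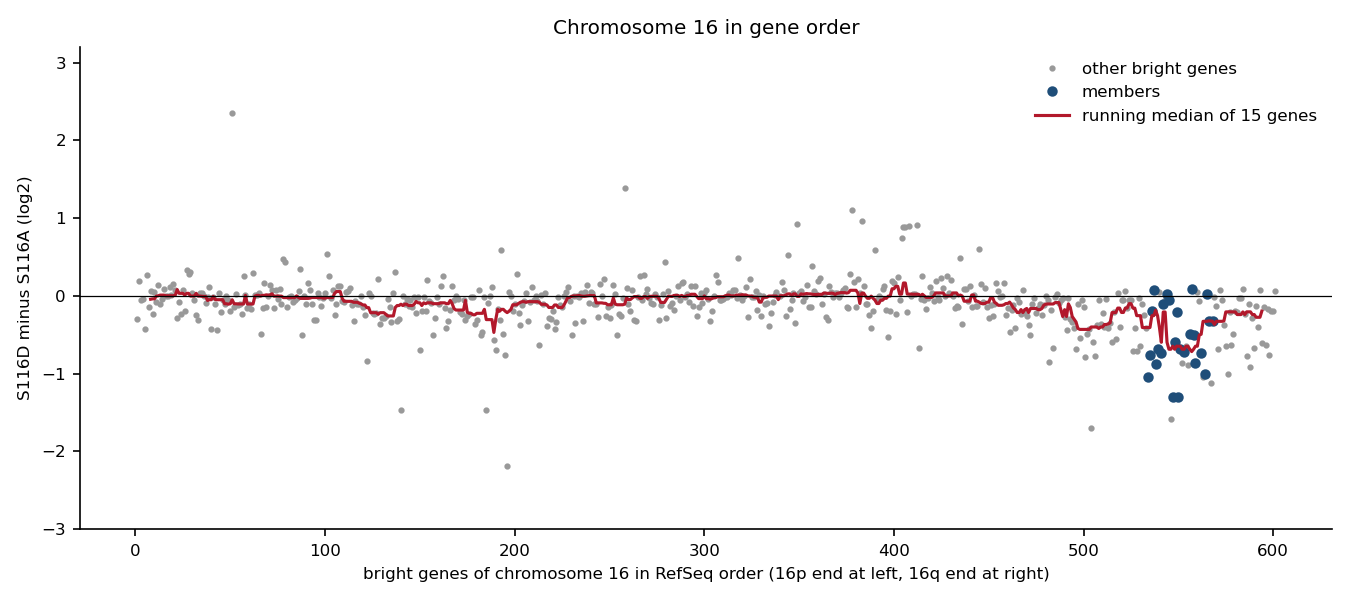
Difference between the lines (S116D minus S116A, log2) of the 601 bright measured genes of chromosome 16 in RefSeq order, from the short-arm end at the left to the long-arm end at the right. Members are blue, other genes grey, and the red line is the running median of 15 genes, which reaches -0.72 among the members.

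Partners of the member proteins, encoded almost entirely elsewhere in the genome, had a median difference near 0. Of 40 listed partners 39 were measured, all bright, with a median difference of -0.01; 3 were called lower and 3 higher by limma, beside 5.39% and 6.79% of all genes. Only GINS3, of these, lies on chromosome 16, and it differed by 0.19 ± 0.10 (SE). In the replicative helicase, GINS2 stood at -0.72 and its 10 partners had a median of -0.15. There MCM4 (-0.46 ± 0.08, limma adjusted p = 0.0089) and MCM5 (-0.40 ± 0.09, limma adjusted p = 0.019) fell. Among 9 other subunits of cytochrome c oxidase the median was 0.10, beside -0.49 for COX4I1. COX7C rose, from 13.16 ± 0.10 to 13.56 ± 0.04 (SD, n = 3 each, limma adjusted p = 0.0059), while COX7A2 (0.12 ± 0.12, SE) and COX6C (-0.01 ± 0.11) did not pass.

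The 4 partners of TAF1C in the polymerase I selectivity factor and the 6 of MBTPS1 in SREBP and ATF6 cleavage gave 0 calls by limma, with 1 and 0 genes at an unadjusted p under 0.05 and medians of 0.10 and 0.01. Of the 4 malonyl-CoA genes listed with MLYCD, CPT1A, the carnitine palmitoyltransferase that malonyl-CoA inhibits, rose by 0.38 ± 0.07 (SE, limma adjusted p = 0.012). HSF1, the heat shock factor that HSBP1 binds, fell by 0.65 on the log2 scale (SE 0.13, limma adjusted p = 0.015). G3BP1, a stress granule protein that binds USP10, rose by 0.32 ± 0.06 (SE, limma adjusted p = 0.012). SKP1, the adaptor that joins FBXO31 to its ligase, differed by 0.13 ± 0.04 and did not pass (limma adjusted p = 0.075).

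**Figure D5:**
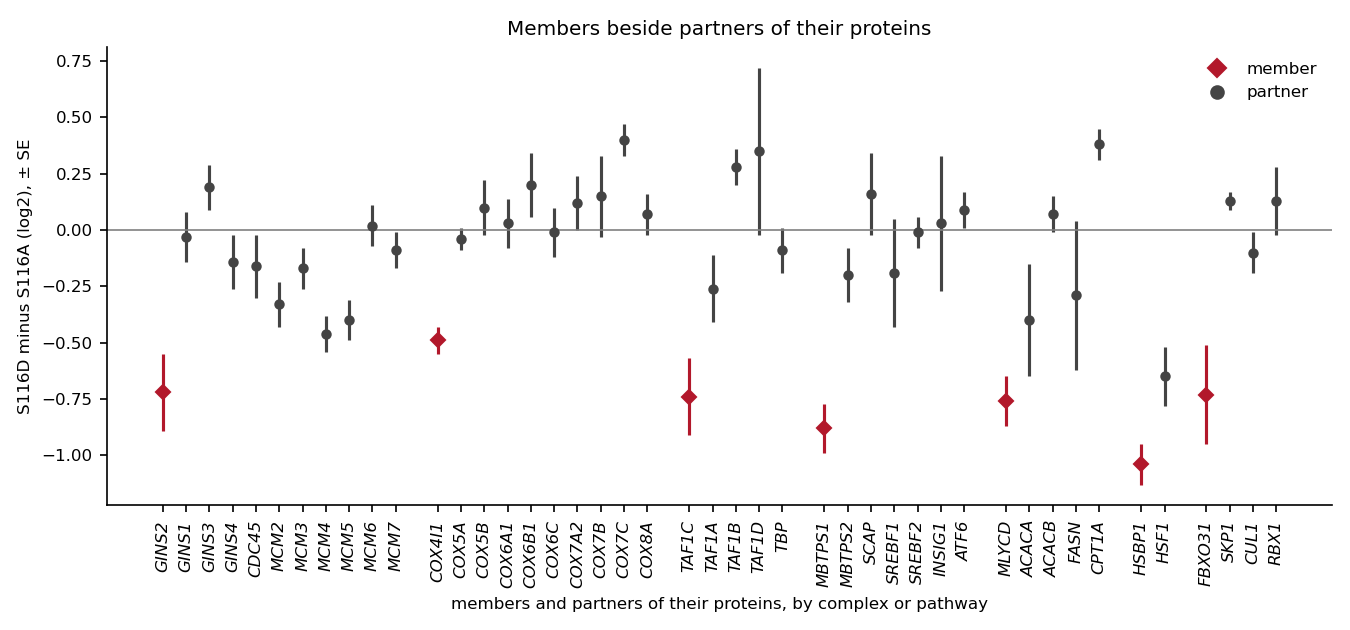
Difference between the lines (S116D minus S116A, log2, with limma's standard error) for 7 members (red diamonds) and the measured partners of their proteins (grey points), grouped by complex or pathway, without those of USP10. The members lie between -1.04 and -0.49; the 9 oxidase partners of COX4I1 have a median of 0.10.

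Most paralogs of the members were not called. Of 19 listed 17 were measured, with a median of -0.15. By limma 2 fell and 3 rose, beside 5.39% and 6.79% of all genes, and 12 were not called. An unadjusted p under 0.05 by limma was found for 11 of the 17, so the uncalled ones are not shown to be unchanged. CRISPLD1, a secreted relative of CRISPLD2, rose from 7.70 ± 0.20 to 8.96 ± 0.03 (SD, n = 3 each, limma adjusted p = 0.00016). Its S116A level, like that of KCNG3 at 7.74, was under the median signal of 7.89 and was not shown to be above background, so no fold is given. KCNG3 rose by 0.60 ± 0.07 (SE, limma adjusted p = 0.0013) and OSGIN2 by 0.57 ± 0.08 (limma adjusted p = 0.0021), beside 0.02 for KCNG4 and -0.19 for OSGIN1. The falls were those of the classical cadherins listed with CDH13. CDH1, E-cadherin, which lies on chromosome 16 too, fell from 8.87 ± 0.68 to 6.06 ± 0.18 (SD, n = 3 each, limma adjusted p = 0.00062). Its probe set is dim, at a mean of 7.47, and its S116D level was not shown to be above background, so no fold is given here either. CDH2, N-cadherin, fell 2.20-fold (limma adjusted p = 0.00076). ATP2C1, FOXF2 and ZCCHC2, the brightest of the others, differed by -0.21 ± 0.08, -0.55 ± 0.15 and -0.41 ± 0.13 (SE) and did not pass.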

How the data were processed

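Total RNA of 6 samples was read on Affymetrix arrays. The authors deposited 1 log2 signal per probe set and array (54675 probe sets, from 4.336 to 15.33, taken as log2 from their range). MAS5 and RMA are named, per the submitters' processing notes, with no role or version, and other steps were not given in the sources used here. Detection calls were not used. Without signal over background, differences of dim probe sets are not exact, and 3 arrays per line limit the precision.

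Control probe sets (62) were left out. GEO's platform annotation, with symbols updated through RefSeq gene identifiers (GRCh38.p14), named 41091 probe sets by 1 gene, of which 41037 matched RefSeq; 1801 had several genes and 11721 are unnamed here. Gene order came from RefSeq. All probe sets, and separately all genes by their brightest probe set, were fitted with limma 3.58.1 in R 4.3.3 (lmFit, eBayes with trend, no covariate, Benjamini-Hochberg). SEs are limma's. The scripts were tested on simulated data.

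Members and lists were chosen with earlier results of these data known. Named were all members, the 3 largest differences and nearest neighbour of each neighbouring set, and called and the 3 brightest uncalled partners and paralogs; others are marked. Alternatives tried were a filter on dim probe sets, quantile normalization, centring on the median, no trend, 2 blocks, 2 other probe set rules, another split of bright and dim, values within the array sets (added after seeing the data), and leaving out each array.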

Additional observations from a re-analysis of the deposited data

How the results depend on the processing

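The lower direction of the member medians held under every alternative run. The members were chosen for that direction on these same arrays, so its holding is not a test of it. The median of the member genes, -0.50, became -0.28 on the median of the probe sets of a gene, -0.30 with unshared probe sets preferred and -0.60 among probe sets above the median signal; without single arrays it ran from -0.51 to -0.48. The median of bright member probe sets, -0.50, became -0.33 with the split at the 25th percentile and -0.56 within array set 2 (S116A 3, S116D 2 and 3), and ran from -0.54 to -0.48 without single arrays. Member genes called lower numbered 12 to 18 beside 15. All genes called numbered 2407, but 4411 with the array sets as block, 3892 with the replicate block, and 1447 to 2593 without single arrays (1447 without S116A 1, 1560 without S116A 2, 1451 without S116D 2, 1528 without S116D 3). The cause of these changes was not tested. Of 417 values of single member genes under alternatives, 389 moved by no more than the replicate SD, 28 moved further and 0 calls reversed. Replicate numbers were not read as pairing arrays: deviations of same-numbered arrays correlated at 0.45, -0.04 and 0.442, and 4 of 6 arrays correlated best with their own number. The replicate block left the member median at -0.50 and added the call of FBXO31. Dim probe sets, 23 of 65, limit what can be said of a gene's level.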
